A study of Mus musculus with 12 samples.

Results

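The TGF-beta, BMP and activin genes described here were 42 genes chosen by name, out of the 55679 genes of the deposited gene table, and all 42 were found there. They comprised 11 ligands, 3 latent TGF-beta binding proteins, 9 receptors, 6 extracellular antagonists and follistatin family proteins, 7 Smads, 3 Smad regulators and 3 common target genes. No measured value entered the rule, but the list was made with earlier results of these data known. RNA had been sequenced from the whole lung and the whole heart of the same 6 adult male mice, 3 Adam19 wild type (WT) and 3 Adam19 knockout (KO), which gave 12 libraries. All mice were on the 129S6/SvEvTac background. In the KO mice both alleles carried a tdTomato construct, together with a hygromycin resistance gene in antisense, in place of Adam19 exons 6 and 7, and the first 5 exons were retained. The WT mice carried neither insert. The prefix of the mouse identifiers was shared by no WT and KO mouse, and the labels do not say what it marks, so what it marks and genotype cannot be told apart.

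TGF-beta family ligands are secreted dimers that bring together type I and type II receptor kinases at the cell surface. TGF-betas and activins lead to phosphorylation of Smad2 and Smad3, BMPs to that of Smad1 and Smad5, and both groups of Smads enter the nucleus with the common partner Smad4. Secreted antagonists such as noggin, gremlin, chordin-like proteins and follistatins bind the ligands, latent TGF-beta binding proteins hold TGF-beta in the matrix, and the inhibitory Smads, Smad6 and Smad7, act back on the receptors. The pathway is known for branching and alveolar growth in the lung, for valve and septum formation in the heart, and for fibrosis in both. Adam19 is a membrane-anchored metalloprotease of the ADAM family.

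The estimated counts of a library summed to between 17674788 and 35862932. Of the deposited gene values, taken off the log2 scale and summed, the small RNA gene Rn7s1 made up 2.09% to 33.9% in the lungs. In the hearts it made up 2.69% to 11.7%. Levels are given as the deposited gene values, which are on a log2 scale with an adjustment per library, so 1 unit is a doubling. In the 6 members with 1 transcript they were log2 of 1 + the estimated count plus a constant for the library, to within 0.065. In the 36 members with several transcripts they departed from that by a median of 0.026 and by up to 0.71 (Fst in WT heart replicate 2), so a value of these members cannot be turned back into counts exactly. Adam19 itself was lower in KO in both tissues. It stood at 9.14, 9.41 and 9.12 in WT lungs and at 4.44, 3.21 and 3.50 in KO lungs, a difference of −5.51 (SE 0.33, limma adjusted p = 0.000186), and at 9.17, 9.25 and 10.27 in WT hearts and 6.67, 6.01 and 6.56 in KO hearts, a difference of −3.14 (SE 0.31, limma adjusted p = 0.00558). The tissue labels held against marker genes. Summed lung epithelium markers lay between 18.8 and 19.1 in the lungs and between 6.4 and 10.7 in the hearts, and summed heart muscle markers between 20.6 and 20.9 in the hearts and 13.3 and 14.6 in the lungs. The 39 members that the authors marked as detected left out Inhba, Grem1 and Nog. In the genotype comparisons of gene values within a tissue, the p-values measure the spread between these 6 mice. Fits of all 12 libraries took the lung and heart of a mouse as independent, except where the mouse was a block.

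**Figure D1:**
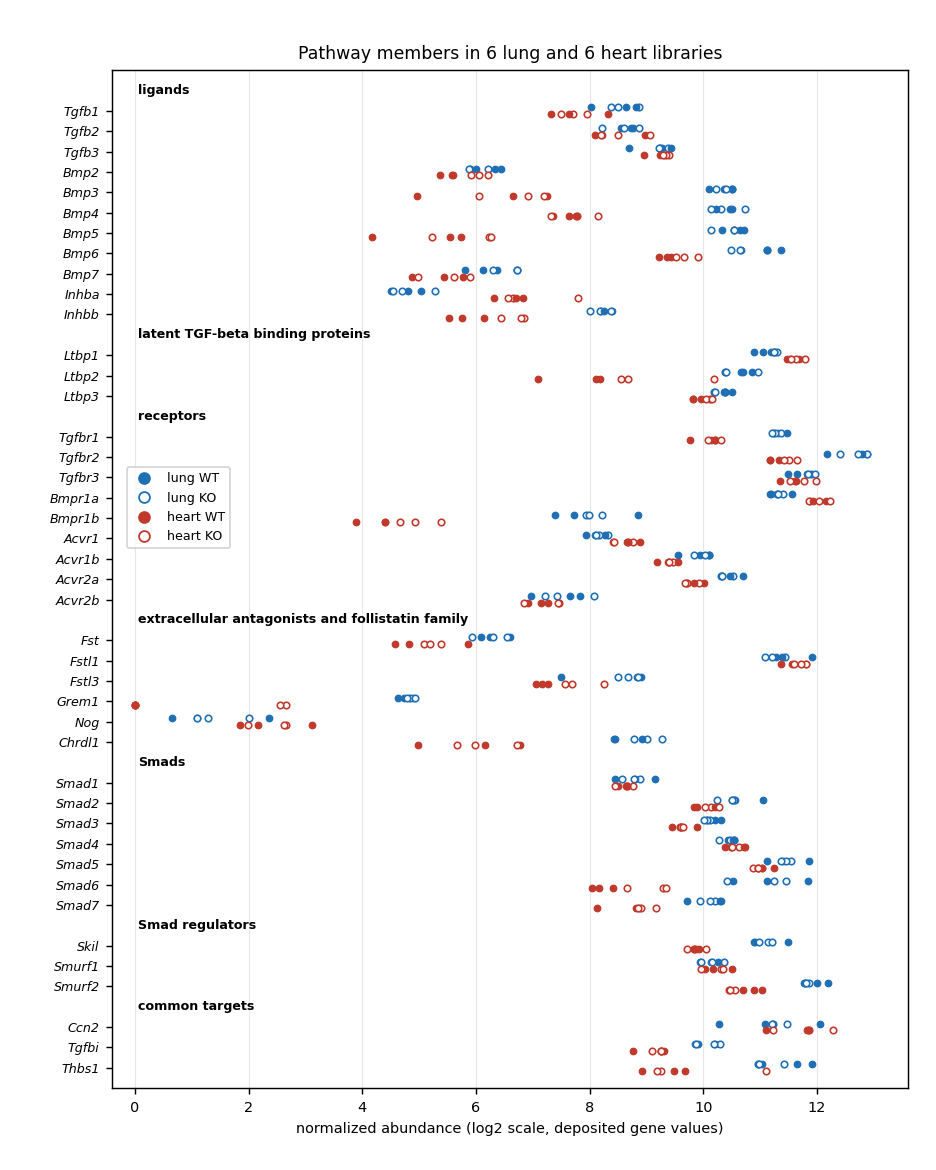
Level of each of the 42 genes (rows, grouped by role) in the 12 libraries, as the deposited value on the log2 scale (horizontal axis). Lungs are in blue and hearts in red, with filled points for WT and open points for KO. Bmp3, Bmp5, Bmpr1b and Chrdl1 are high in all lungs and low in all hearts, Inhba shows the opposite order, and Grem1 is at 0 in 4 of the 6 hearts.

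Between the tissues, most BMP ligands, the receptor Bmpr1b, both TGF-beta receptors and the inhibitory Smads stood higher in the lung, and only 2 genes stood higher in the heart by the thresholds used. These were an adjusted p under 0.05, at least a 1.5-fold difference and a mean of at least 6 in at least 1 group. Of 41 members tested, 21 were higher in the lung, where 29.4% of all genes tested were, and 2 were lower in the lung, where 20.8% of all genes were. The median difference over the members was 0.79, beside 0.31 over all genes. Noggin (Nog) fell under the filter on low values and was not tested, with 0.65 to 2.36 in the lungs and 1.84 to 3.10 in the hearts. In the same fit, the lung and heart of the WT mice gave 22 higher and 2 lower, and those of the KO mice 21 higher and 2 lower. Of the 23 genes called, 18 passed the thresholds in all 24 ways the comparison was fitted. Tgfb1 and Bmp7 did not pass in a fit of the WT libraries alone, Acvr2a did not without lung WT replicate 3, and Tgfb1, Acvr2a and Fst did not with the median difference over all genes set to 0, where Ltbp1, Acvr1 and Ccn2 passed as lower in the lung, making 5. In whole organs, fewer cells of a type and less RNA per cell cannot be told apart. Summed endothelium markers lay between 15.40 and 15.58 in the lungs and between 13.83 and 13.96 in the hearts, and their part in the differences was not tested.

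Among the ligands, 7 of 11 were higher in the lung and 1 was lower. Bmp5 (chr9:75682638-75807592 in GRCm39, plus strand), a BMP7-like ligand, ranged from 10.14 through a median of 10.54 to 10.71 in the lungs and from 4.16 through 5.64 to 6.26 in the hearts. This was the largest difference of any called member, 4.96 (SE 0.27, 95% confidence interval 4.38 to 5.54) or 31.1-fold, with an adjusted p of 2.55e-09 by limma. Bmp3 (chr5:99002268-99032255, plus strand), an atypical BMP that opposes the others, had 10.10, 10.38 and 10.51 as its lowest, median and highest lung values against 4.96, 6.78 and 7.25 in the hearts (difference 3.84, SE 0.32, adjusted p = 1.97e-07). The lowest heart value of both Bmp5 and Bmp3 was that of WT replicate 3, and no lung and heart overlapped for either gene. Bmp4 (chr14:46620250-46636745, minus strand), a ligand needed in lung bud growth, ranged from 10.14 through 10.39 to 10.74 in the lungs and from 7.31 through 7.70 to 8.15 in the hearts, a 6.65-fold difference (2.73, SE 0.15, adjusted p = 3.98e-09). Inhbb, which encodes the activin B subunit, was 3.96-fold higher in the lung (1.98, SE 0.15), Bmp6, a ligand that also controls hepcidin, 2.6-fold (1.38, SE 0.14), Bmp7 1.88-fold (0.91, SE 0.22) and Tgfb1 1.73-fold (0.79, SE 0.19).

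The gene for the other activin subunit went the opposite way. Inhba (chr13:16186373-16206206, plus strand), the activin A subunit, had 4.51, 4.75 and 5.28 as its lowest, median and highest lung values and 6.31, 6.68 and 7.79 in the hearts. Its lung-minus-heart difference was −2.0 (SE 0.25, 95% confidence interval −2.54 to −1.46, adjusted p = 8.3e-06), a level 3.99-fold higher in the heart. The remaining TGF-betas lay close in both tissues, with a difference of 0.12 for Tgfb2 (95% confidence interval −0.30 to 0.53) and −0.05 for Tgfb3 (−0.32 to 0.23). Bmp2, a ligand of heart cushion formation, did not pass at 0.34 (−0.01 to 0.69, adjusted p = 0.0716).

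**Figure D2:**
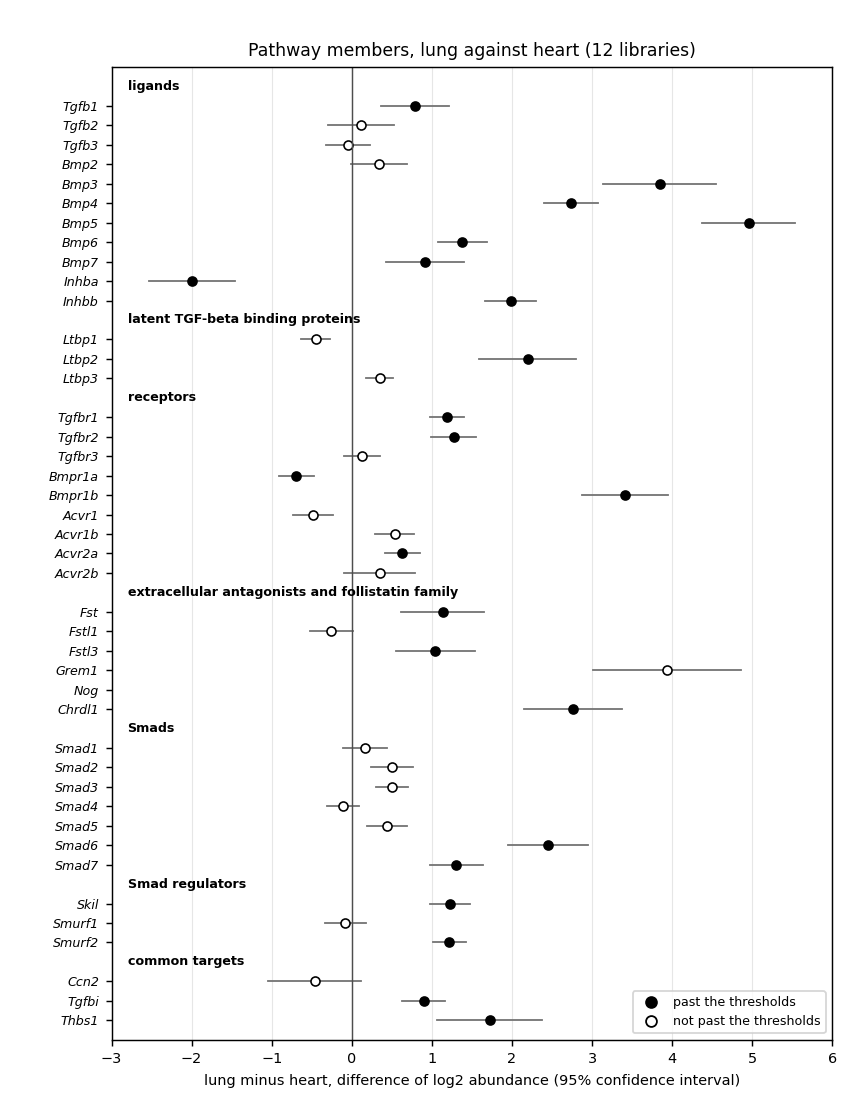
Lung-minus-heart difference of each tested gene (log2, horizontal axis) with its 95% confidence interval, grouped by role, with filled points for genes past the thresholds. The filled points lie to the right of 0 except for Inhba at −2.0 and Bmpr1a at −0.69, and Bmp5 lies farthest to the right at 4.96.

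Of the 3 latent TGF-beta binding proteins, only Ltbp2, which binds fibrillin and, unlike the others, no latent TGF-beta, passed the thresholds. Its lung values ran from 10.38 to 10.96 with a median of 10.68, its heart values from 7.08 to 10.18 with a median of 8.37, and the difference was 2.19 (SE 0.28, adjusted p = 9.35e-06). The highest heart value, in KO replicate 2, came close to the lowest lung. Ltbp1, which anchors latent TGF-beta in the matrix, was lower in the lung by less than 1.5-fold (−0.45, adjusted p = 0.000334), and Ltbp3 was higher by less than 1.5-fold (0.35).

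Receptors split by family member. Bmpr1b (chr3:141542897-141875323, minus strand) and Bmpr1a (chr14:34132687-34225379, minus strand) are both type I BMP receptors. Bmpr1b ranged from 7.38 through 7.96 to 8.85 in the lungs and from 3.89 through 4.53 to 5.39 in the hearts, a difference of 3.41 (SE 0.25, adjusted p = 4.49e-08). Bmpr1a had 11.17, 11.31 and 11.55 in the lungs as lowest, median and highest and 11.86, 11.98 and 12.22 in the hearts, a difference of −0.69 (SE 0.10, adjusted p = 3.53e-05). The order of the tissues was thus opposite for these receptors, although Bmpr1a did not pass without scaling between libraries (−0.43, adjusted p = 0.144) and was under 1.5-fold on summed transcripts (−0.50, adjusted p = 0.000501). Both signalling TGF-beta receptors were higher in the lung, Tgfbr2, the type II receptor, by 1.27 (SE 0.13) and Tgfbr1, the type I receptor, by 1.19 (SE 0.10). Betaglycan (Tgfbr3), the co-receptor that presents TGF-beta2 and binds inhibin, differed by 0.13 (95% confidence interval −0.09 to 0.35). Of the receptors named for activin, Acvr2a was higher in the lung (0.63, SE 0.10). Acvr1 had an adjusted p of 0.00218 by limma but was under 1.5-fold (−0.48). The type I activin receptor Acvr1b was likewise under 1.5-fold (0.54), and the type II receptor Acvr2b did not pass (0.35).

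Of 5 antagonists and follistatin family genes tested, 3 were higher in the lung and none was lower. Chrdl1 (chrX:142068670-142177258, minus strand), a secreted BMP antagonist of the chordin kind, ranged from 8.43 through 8.85 to 9.27 in the lungs and from 4.97 through 6.07 to 6.77 in the hearts, a 6.79-fold difference (2.76, SE 0.28, adjusted p = 1.21e-06). Follistatin (Fst) and Fstl3, which both trap activins, were higher by 1.13 (SE 0.24) and 1.04 (SE 0.23), and Fstl1 differed by −0.25. Gremlin 1 (Grem1), a BMP antagonist, lay between 4.62 and 4.93 in the lungs and was at 0 in all 3 WT hearts and in KO heart replicate 1, with 2.66 and 2.55 in the other KO hearts. Its mean over the 6 lungs, 4.80, was under the threshold of 6. A library at 0 still allows 3 estimated counts, which put Grem1 in WT lungs at least 3.87-fold higher than in WT hearts.

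Among the Smads, only the inhibitory ones passed. Smad6 (chr9:63860341-63929793 in GRCm39, minus strand), which blocks BMP type I receptors and is itself switched on by BMP signalling, had 10.42, 11.18 and 11.84 as its lowest, median and highest lung values and 8.04, 8.53 and 9.35 in the hearts, a 5.47-fold difference (2.45, SE 0.23, adjusted p = 5.96e-07). Smad7, which blocks TGF-beta and BMP receptors, was higher by 1.31 (SE 0.15). Of the signal-carrying Smads, Smad2 (0.50, adjusted p = 0.00189), Smad3 (0.50, adjusted p = 0.000295) and Smad5 (0.44, adjusted p = 0.00408) were higher in the lung by less than 1.5-fold in the limma fit. Smad1 differed by 0.16 and Smad4 by −0.11 (95% confidence interval −0.31 to 0.09), and neither passed. Of the Smad regulators, Skil, a nuclear repressor of Smads also known as SnoN, and Smurf2, a ubiquitin ligase for receptors and Smads, were higher by 1.23 (SE 0.12) and 1.22 (SE 0.09), and the related ligase Smurf1 differed by −0.08. Of the common targets, Thbs1, which can free latent TGF-beta, was higher by 1.72 (SE 0.30) and Tgfbi, a matrix protein named for its induction, by 0.90 (SE 0.12), while Ccn2, the matrix protein CTGF, differed by −0.47 (95% confidence interval −1.05 to 0.12, adjusted p = 0.132).

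The Smad6 promoter is shown because Smad6 was the inhibitory Smad with the larger tissue difference and had the smallest p of the members between WT and KO hearts. The run covers 250 bases before and 20 after the start that RefSeq gives in GRCm38.p6 (chr9:64022040-64022309, minus strand), with the palindrome GTCTAGAC, the letters bound by a pair of Smad proteins in vitro, in capitals at the start itself.
Smad6 promoter: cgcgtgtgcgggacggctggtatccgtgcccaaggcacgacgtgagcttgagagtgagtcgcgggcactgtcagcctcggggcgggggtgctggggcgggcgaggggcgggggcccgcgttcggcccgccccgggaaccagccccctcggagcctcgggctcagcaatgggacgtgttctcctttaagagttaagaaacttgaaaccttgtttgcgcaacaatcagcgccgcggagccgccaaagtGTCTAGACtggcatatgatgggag
RefSeq promoters, each of 250 bases before to 50 after a start, matched 28 of the 42 genes with 34 promoters, and 3 motifs were searched on both strands. GTCTAGAC was found in 1 of the 34 member promoters, that of Smad6, and in 0.213% of all 32851 promoters. GGCGCC, a motif of BMP Smads, was in 8 of 34 member promoters and 11.9% of all. CAGACA, which holds the core letters of the Smad motif, was in 9 of 34 and 21.0% of all. GGCGCC and GTCTAGAC read the same on both strands, and none of the 3 motifs contains another. These matches are of letters only.

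Levels were compared between genes as estimated counts per kilobase of transcript, on the deposited scaling between libraries. Ccn2 was the highest member in both tissues, with 946 ± 363 (SD, n = 6) in the lung and 1269 ± 375 in the heart. In the lung Tgfbr2 (783 ± 121) and Smad6 (761 ± 279) came next, and in the heart Bmpr1a (903 ± 93.2) and Fstl1 (832 ± 95.5), a secreted follistatin-like glycoprotein. The spread within a tissue exceeded the gaps at the top, since Ccn2 ran from 466 to 1570 over the lungs and from 812 to 1837 over the hearts, and Smad6 from 449 to 1197 over the lungs. The lowest levels in the lung were those of Nog (1.13), Inhba (4.32) and Grem1 (6.79), and in the heart those of Grem1 (0.431), Nog (2.55) and Bmpr1b (4.87). When the members were put in order, only 3 neighbouring pairs in each tissue had ranges that did not overlap. These were Bmp2 and Grem1, Grem1 and Inhba, and Inhba and Nog in the lung, and Fstl1 and Ltbp1, Tgfbr3 and Ltbp3, and Nog and Grem1 in the heart.

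For 57 transcripts of 18 members with enough counts, the share of a gene's estimated counts that each transcript took was compared between lung and heart. Shares of 9 transcripts in 5 members, Tgfb2, Skil, Ltbp1, Ltbp2 and Ccn2, differed by at least 10 percentage points with an adjusted p under 0.05, where 9.14% of all transcripts tested did. Counted by gene, 5 of 18 members stand beside 21.5% of all genes with such a share. These shares rest on the authors' assignment of reads to overlapping transcripts. With the mouse as a block for its lung and heart, only Tgfb2-201 passed (adjusted p = 0.0341 by limma), and the other 8 had adjusted p-values from 0.0508 to 0.109. When each of the 12 libraries was left out in turn, Tgfb2-201, Ltbp1-201 and Ltbp1-203 passed every time, Ltbp2-201 missed the 10 points once (9.94, without lung KO replicate 3), and the others failed in 5 to 10 of the 12 fits. The alternative stretches (whole exons in Tgfb2 and Ltbp2, part of an exon in Skil) are given below in GRCm39, on the gene's strand. They are in capitals, with 24 bases of the transcript on each side in lower case. They are shown because each is a multiple of 3 bases within the coding region, so either transcript keeps the reading frame. The annotation also starts the coding region of Ltbp2-202 60 bases earlier, in an exon that both Ltbp2 forms share.
Tgfb2, 84 bases at chr1:186422918-186423001 (minus strand), 28 codons present in Tgfb2-206 and absent from Tgfb2-201: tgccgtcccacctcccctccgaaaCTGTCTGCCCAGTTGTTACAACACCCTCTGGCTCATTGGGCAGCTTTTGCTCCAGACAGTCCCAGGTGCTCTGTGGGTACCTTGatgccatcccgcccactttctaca
Skil, 138 bases at chr3:31167652-31167789 (plus strand), 46 codons present in Skil-201 and absent from Skil-204: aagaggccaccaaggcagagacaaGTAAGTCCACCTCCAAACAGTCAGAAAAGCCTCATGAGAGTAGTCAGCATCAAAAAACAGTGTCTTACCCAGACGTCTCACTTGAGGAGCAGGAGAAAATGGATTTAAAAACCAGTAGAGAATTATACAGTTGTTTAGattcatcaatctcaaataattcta
Ltbp2, 129 bases at chr12:84850561-84850689 (minus strand), 43 codons present in Ltbp2-201 and absent from Ltbp2-202: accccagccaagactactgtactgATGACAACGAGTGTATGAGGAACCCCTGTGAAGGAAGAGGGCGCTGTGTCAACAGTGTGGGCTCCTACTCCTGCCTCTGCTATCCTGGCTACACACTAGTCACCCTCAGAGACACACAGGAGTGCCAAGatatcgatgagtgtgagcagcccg

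Tgfb2 encodes the TGF-beta2 precursor, and the extra exon lies in the part that becomes its propeptide. Tgfb2-206, the form with the exon, took 0% to 13.3% of the gene's counts in the lungs (median 9.69%) and 19.9% to 43.8% in the hearts (median 33.1%). Tgfb2-201, the form without it, took 91.2% ± 5.0 (SD, n = 6) in the lung and 65.8% ± 6.9 in the heart, a difference of 25.4 percentage points (adjusted p = 0.0085 by limma), and every lung was above every heart. The total level of Tgfb2 differed by only 0.12 on the log2 scale.

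In Skil, the form with the 46 codons took a larger share in hearts than in lungs. Skil-201 ran from 22.2% through 31.2% to 36.1% in the lungs and from 38.5% through 46.3% to 58.4% in the hearts, 16.8 percentage points lower in the lung (adjusted p = 0.027 by limma). Skil-204, which lacks them, ran from 62.1% to 75% in the lungs and from 38.7% to 60.2% in the hearts (adjusted p = 0.035). No lung and heart overlapped for either transcript.

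Ltbp1 is known to have a long and a short form with separate first exons. Their first 60 coding bases, with the start codon in capitals, show that the proteins begin differently, at chr17:75312881-75312940 for the long form Ltbp1-201 and at chr17:75485977-75486036 for the short form Ltbp1-203, both on the plus strand.
Ltbp1-201: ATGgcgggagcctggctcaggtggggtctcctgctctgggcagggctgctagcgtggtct
Ltbp1-203: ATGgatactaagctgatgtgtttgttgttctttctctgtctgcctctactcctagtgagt
The long form took 17.8% to 37.0% (median 26.4%) of the counts in the lungs and 37.8% to 57.5% (median 46.4%) in the hearts, 19.5 percentage points lower in the lung (adjusted p = 0.011 by limma). The short form took 24.6% to 39.4% (median 34.0%) in the lungs and 8.5% to 28.0% (median 16.2%) in the hearts, 15.6 percentage points higher in the lung (adjusted p = 0.017). The third abundant transcript, Ltbp1-202, also short but without 53 codons of Ltbp1-203, took like shares of 36.8% ± 4.25 and 35.7% ± 3.96. The long form thus took more of the gene in hearts, and the short Ltbp1-203 more of it in lungs.

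In Ltbp2 the form with the exon shown above, Ltbp2-201, took 78.3% to 91.1% in the lungs (median 85.6%) and 91.7% to 100% in the hearts (median 97.6%), a difference of −11.2 percentage points (adjusted p = 0.00031 by limma). Ltbp2-202, which lacks it, was not called between the tissues, so the call for Ltbp2-201 does not show that this exon is skipped more in the lung. Ltbp2-202 was at 0% in all 3 WT hearts and at 7.5%, 7.8% and 4.3% in KO hearts. This difference of 6.5 points between WT and KO hearts had an adjusted p of 0.032 by limma but was under the 10 points asked for, and the WT hearts were also the libraries with the least Ltbp2. Ccn2-203 keeps a 371-base intron (chr10:24472842-24473212, plus strand) that Ccn2-201 splices out. Its edges are shown with the intron in capitals, beginning with GT and ending with AG.
Ccn2 intron start, chr10:24472812-24472871: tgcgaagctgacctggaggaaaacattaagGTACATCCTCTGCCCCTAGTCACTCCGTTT
Ccn2 intron end, chr10:24473183-24473242: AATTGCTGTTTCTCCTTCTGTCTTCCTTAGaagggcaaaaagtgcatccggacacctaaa
Ccn2-203 took 6.3% to 33.3% in the lungs (median 9.4%) and 0.72% to 16.1% in the hearts (median 1.8%), a difference of 10.6 percentage points (adjusted p = 0.044 by limma), and the tissues overlapped. The call was lost in 10 of the 12 fits with a library left out, and the difference was 6.34 points without lung WT replicate 3. Lung WT replicate 3 at 33.3% and heart WT replicate 2 at 16.1% were the highest of their tissues.

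**Figure D3:**
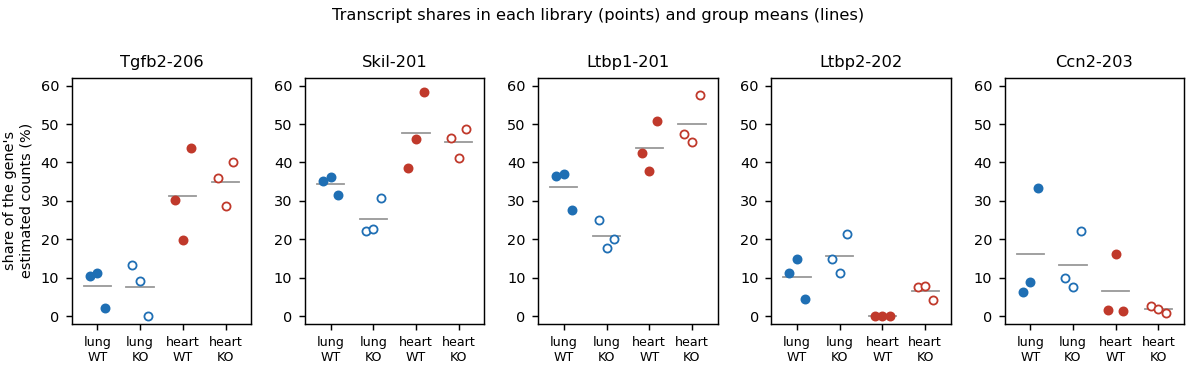
Share of the gene's estimated counts (percent, vertical axis) taken by Tgfb2-206, Skil-201, Ltbp1-201, Ltbp2-202 and Ccn2-203 in each library, by tissue and genotype, with the group mean as a line. The first 3 lie higher in every heart than in any lung, and Ltbp2-202 is at 0% in the WT hearts and at 4.3% to 7.8% in the KO hearts.

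Between KO and WT lungs, no member of 41 tested passed the thresholds, where 0.0665% of all genes did (limma), and 0 had an unadjusted p under 0.05, where 5.93% of all genes did. The median difference was −0.00 beside 0.01 over all genes, with 20 members above 0, and the members' 95% confidence intervals had a median half-width of 0.44. Only Tgfbr3 and Ltbp1 had every KO lung above every WT lung (6.41% of all genes did), and no member had every KO lung below.

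The 4 members with the smallest p in the lung had the following values. Chrdl1 was at 8.44, 8.43 and 8.93 in WT and at 9.0, 8.78 and 9.27 in KO, with overlapping groups and a difference of 0.42 (SE 0.21, 95% confidence interval −0.05 to 0.89, adjusted p = 0.836). Bmp7, a ligand of epithelia, was at 6.12, 6.36 and 5.80 in WT and at 6.72, 6.73 and 6.30 in KO, a difference of 0.49 (SE 0.25, adjusted p = 0.839), and KO replicate 3 fell below WT replicate 2. Tgfbr3 was at 11.49, 11.83 and 11.65 in WT and just above them, at 11.90, 11.96 and 11.84, in KO, a difference of 0.25 (SE 0.15, adjusted p = 0.841). Thbs1 was at 11.02, 11.92 and 11.65 in WT and at 11.43, 10.96 and 10.98 in KO, a difference of −0.41 (SE 0.24, adjusted p = 0.841), with WT replicate 1 among the KO values. The 95% confidence interval of the difference held 0 for each of these 4 genes. Without WT replicate 3, 3 of 41 members had an unadjusted p under 0.05 (limma), where 8.54% of all genes did. Without WT replicate 1 there was 1 such member (Thbs1, beside 5.18% of all genes). Without WT replicate 2 there was also 1 (Ccn2, beside 9.04%). None passed the thresholds.

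**Figure D4:**
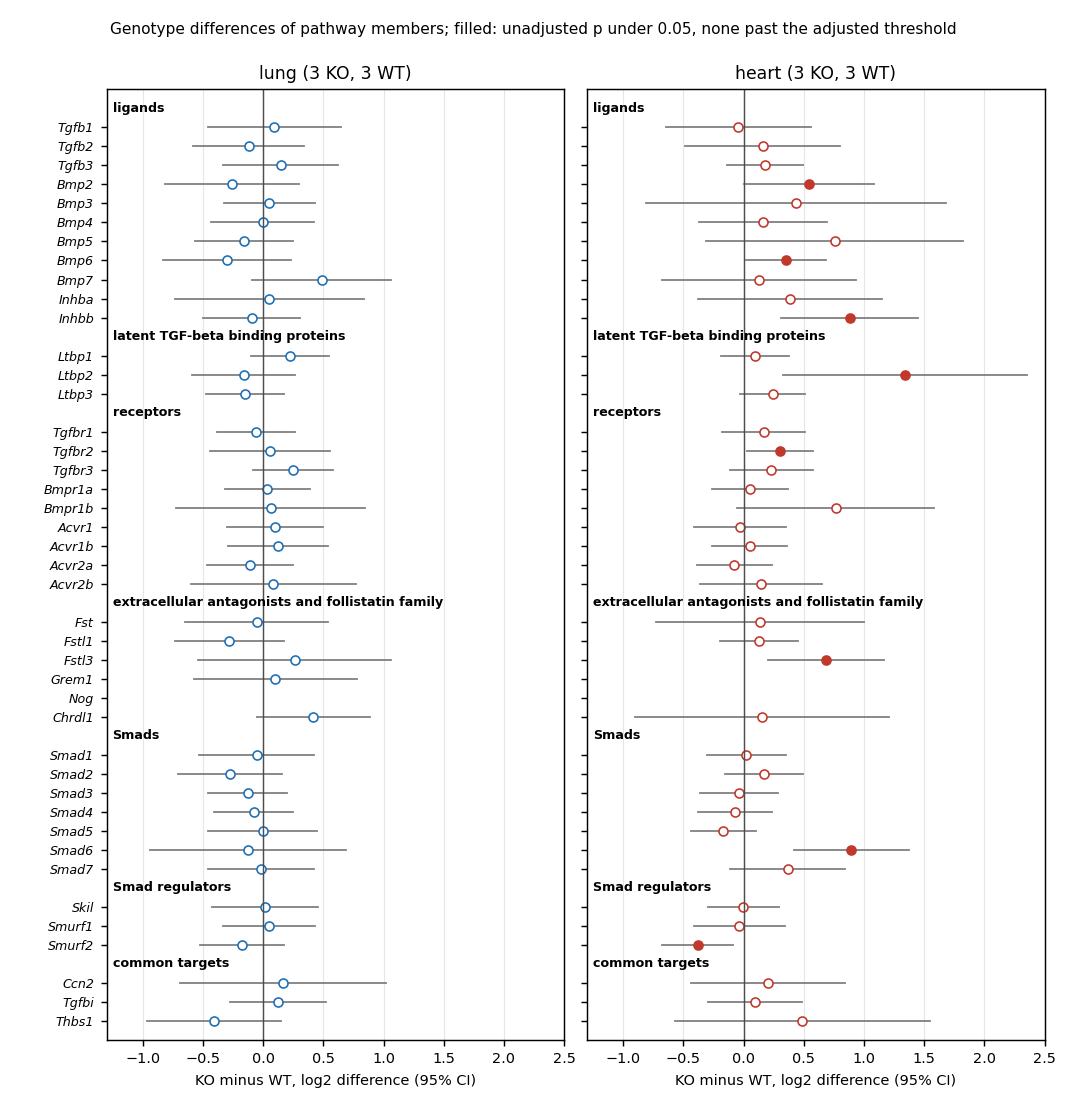
KO-minus-WT difference of each tested gene (log2, horizontal axis) in lung and in heart, with 95% confidence intervals, and filled points for an unadjusted p under 0.05. No lung point is filled, and 8 heart points are, 7 to the right of 0 and Smurf2 to the left at −0.38, which turned to 0.20 without scaling between libraries.

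In the heart, Smad6, Inhbb, Fstl3 and Ltbp2 had the smallest p of the members, and each was higher in every KO heart than in any WT heart without passing the thresholds. None of 40 members tested was called, where 0.085% of all genes were (limma), and 8 had an unadjusted p under 0.05, 7 of them higher in KO, where 7.46% of all genes had such a p. The median difference was 0.16 beside 0.03 over all genes, with 31 of 40 members above 0. In 9 members every KO heart was above every WT heart (7.82% of all genes), and in 2 every KO heart was below (5.23%). Leaving out 1 library left 4 to 7 members with an unadjusted p under 0.05 (limma), where 3.80% to 9.19% of all genes had such a p. The 4 came without KO replicate 1 (3.80% of all genes) and the 7 without KO replicate 3 (4.73%). Without WT replicate 3 there were 5 of 40, or 12.5%, beside 8.32% of all genes. Without KO replicate 2 there were 6, or 15%, beside 9.19%. Without scaling between libraries, which moved the median of all genes by 0.59, Smad6 (1.48, adjusted p = 0.0169 by limma) and Ltbp2 (1.93, adjusted p = 0.000352) passed the thresholds. In that fit 19 of 40 members, or 47.5%, had an unadjusted p under 0.05 (limma), all higher in KO. So did 22.02% of all genes, beside 7.46% with scaling.

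Smad6 had the smallest p of the members. It was at 8.16, 8.04 and 8.41 in WT hearts and at 9.29, 8.65 and 9.35 in KO hearts, a difference of 0.89 (SE 0.21, 95% confidence interval 0.42 to 1.37) or 1.86-fold, with an adjusted p of 0.385. All KO hearts were above all WT hearts, and the adjusted p ran from 0.112 to 0.994 when each heart was left out in turn. Inhbb was at 5.52, 5.75 and 6.15 in WT and at 6.43, 6.84 and 6.80 in KO, again with no overlap (0.88, SE 0.25, 95% confidence interval 0.31 to 1.45, adjusted p = 0.492). Fstl3, the activin trap, was at 7.27, 7.15 and 7.05 in WT and at 7.57, 8.26 and 7.69 in KO (0.68, SE 0.21, adjusted p = 0.571). Ltbp2 was at 8.11, 8.19 and 7.08 in WT and at 8.67, 10.18 and 8.55 in KO, the largest of these differences (1.34, SE 0.45, adjusted p = 0.609). KO replicate 2 and WT replicate 3 each lay more than 1 log2 unit from the rest of their group for Ltbp2, and the difference was 0.81 (SE 0.32) without the first and 0.98 without the second.

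The other members with an unadjusted p under 0.05 were smaller in difference. Bmp2 was at 5.36, 5.60 and 5.58 in WT and at 6.20, 6.06 and 5.91 in KO (0.54, SE 0.24, adjusted p = 0.670 by limma). Bmp6 and Tgfbr2 differed by 0.35 (SE 0.15) and 0.30 (SE 0.12). The ubiquitin ligase Smurf2 was the member below 0, at 10.69, 11.04 and 10.88 in WT and at 10.45, 10.55 and 10.47 in KO (−0.38, SE 0.13, adjusted p = 0.609 by limma), and it turned to 0.20 without scaling between libraries. None of these groups overlapped. KO heart replicate 2 also stood more than 1 log2 unit above the other KO hearts for Inhba, at 7.79 beside 6.65 and 6.56, and for Thbs1, at 11.11 beside 9.26 and 9.18.

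Summed markers of other cells were compared between the same hearts. Smooth muscle markers (Acta2, Myh11, Tagln and Cnn1) summed to between 13.20 and 13.49 in WT hearts and between 13.99 and 14.23 in KO hearts, all 4 with an unadjusted p under 0.05 and none past the thresholds. Atrial muscle markers summed to between 14.80 and 16.57 in WT and 16.03 and 17.20 in KO, with WT replicate 3 the lowest. Cartilage markers summed to between 4.44 and 6.39 in WT and 6.54 and 7.97 in KO, highest in KO replicate 2 and lowest in WT replicate 3. Fibroblast markers summed to between 14.38 and 14.67 in WT and 14.66 and 14.83 in KO, and endothelium markers overlapped, between 13.83 and 13.96 in WT and 13.84 and 13.88 in KO. WT heart replicates 2 and 3 were also shallower, with 20381284 and 18392292 estimated counts beside 31784742 to 35862932 in KO hearts. The part of these differences in the members' values was not tested.

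**Figure D5:**
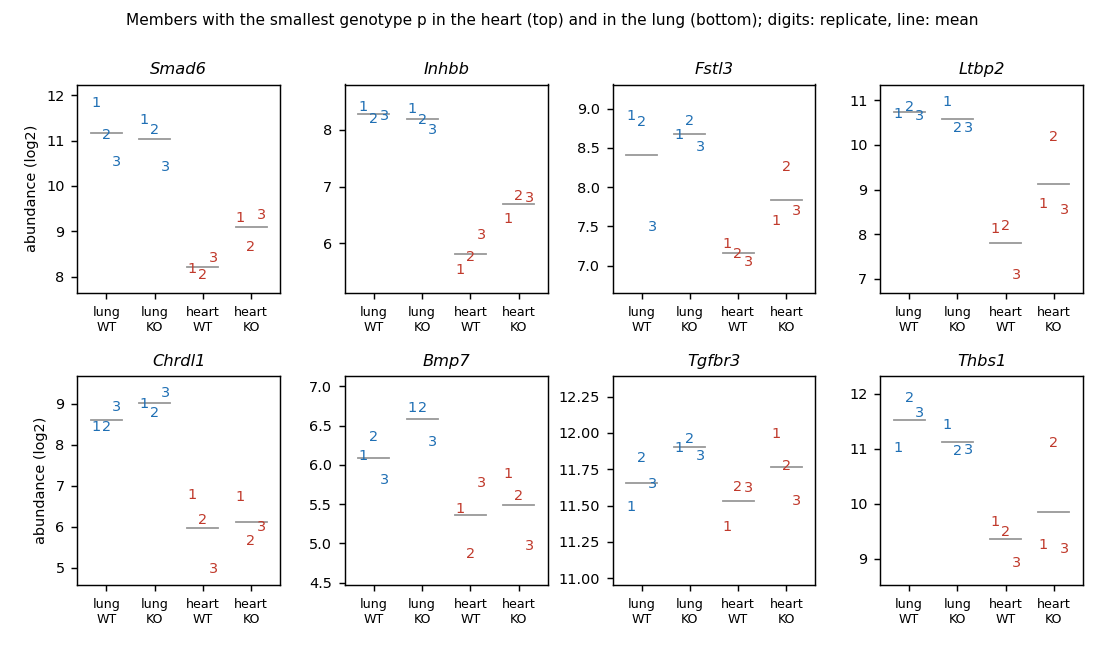
Level (log2, vertical axis) of the 4 genes with the smallest p between WT and KO hearts (top row, Smad6, Inhbb, Fstl3 and Ltbp2) and lungs (bottom row, Chrdl1, Bmp7, Tgfbr3 and Thbs1), with replicate numbers as points and the mean as a line. The heart groups do not overlap for the 4 genes of the top row, and of the bottom row only Tgfbr3 keeps KO lungs above WT lungs.

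Whether the genotype difference itself differed between lung and heart was tested in a single fit of all 12 libraries. None of the 41 members passed, where 0.00566% of all genes did (limma), and 6 had an unadjusted p under 0.05 (7.88% of all genes). All 6 were below 0, which means a lower KO-minus-WT difference in lung than in heart. They were Inhbb (−0.98, SE 0.30, adjusted p = 0.517), Ltbp2 (−1.50), Smad6 (−1.02, SE 0.46, adjusted p = 0.634), Bmp2 (−0.80), Bmp6 (−0.65) and Ltbp3 (−0.39). With the mouse as a block, Bmp6, Inhbb and Ltbp2 had an unadjusted p under 0.05 (limma). That is 7.32% of the members, beside 7.85% of all genes. In lungs Smad6 was at 11.84, 11.13 and 10.53 in WT and 11.45, 11.24 and 10.42 in KO, and Inhbb at 8.40, 8.19 and 8.24 in WT and 8.38, 8.18 and 8.0 in KO, so the lung groups overlapped for both. No transcript share of a member was called between KO and WT, in the lung (0.123% of all transcripts were) or in the heart (0.0497%).

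A wider list of 90 other TGF-beta family pathway genes, 89 of them in the gene table, was taken as a background to the members. Between tissues 73 were tested, and 25 were higher and 16 lower in the lung, where 29.4% and 20.8% of all genes were. Large differences towards the lung were those of Tmem100, a membrane protein induced by BMP9 and BMP10 in endothelium (5.20), Cdkn2b, a cell cycle inhibitor induced by TGF-beta (4.61), Acvrl1, the endothelial type I receptor ALK1 (3.53), and the BMP antagonist Nbl1 (2.65). Towards the heart the largest was that of Bmp10, an atrial ligand of ALK1 that was at 0 in all 6 lungs and between 7.55 and 12.53 in the hearts, whose mean of 10.64 is at least 327-fold higher than the value of 3 estimated counts in a lung. Hjv, a BMP co-receptor (−6.73), Thbs2 (−4.33), and the antagonists Sost (−4.29) and Vwc2 (−4.15) followed.

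Between KO and WT, none of the 64 of these genes tested in the lung and none of the 70 tested in the heart passed the thresholds (limma). An unadjusted p under 0.05 was found for 3 in the lung, all lower in KO (Id1 −0.54, Cdkn1a −0.86 and Junb −0.67). In the lung 5.93% of all genes had such a p. In the heart it was found for 17, 15 of them higher in KO, where 7.46% of all genes had such a p. The BMP target Id1, a repressor of basic helix-loop-helix factors, was at 8.70, 8.53 and 8.98 in WT hearts and at 9.34, 9.31 and 9.32 in KO hearts (0.59). Tmem100 was at 6.72, 7.17 and 6.50 in WT hearts and at 8.01, 8.21 and 8.06 in KO hearts, a difference of 1.30 (SE 0.21, adjusted p = 0.123). It passed the thresholds when all 12 libraries entered 1 fit, without scaling between libraries, and without WT heart replicate 2. Acta2 is counted both in this list and among the smooth muscle markers above.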

How the data were processed

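RNA from lung and heart of 6 mice was sequenced by the authors on strand-specific total RNA libraries and quantified with Salmon against GENCODE vM33 transcripts (mm39). The authors deposited a gene table and a transcript table of log2 values. Transcript values are log2 of 1 + the estimated count. The authors' gene values are log2 too. For genes with 1 transcript they are the transcript value plus a constant per library of −0.63 to 0.80, with 0 left at 0. For the 36 members with several transcripts they depart from the summed transcripts by up to 0.71. The step from transcripts to genes is not given in the sources used here, and the per-library scaling changes differences between libraries. The authors' mark of detected genes was read but not used as a filter.

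Gene values were tested as deposited with limma 3.58.1 in R 4.3.3 (lmFit, eBayes with a trend). Genes were kept that reached 3.46 (log2 of 1 + 10) in 3 libraries or more. In fits of 5 libraries, 1 tissue with a library left out, 2 libraries were enough. The p-values were adjusted over all genes (Benjamini-Hochberg). Genes were called at the authors' thresholds, that is an adjusted p below 0.05, a change of 1.5-fold or more and a highest group mean (between tissues, tissue mean) of 6 or more. Tissues were compared over 4 group means and 12 libraries, genotypes within each tissue. Fold changes on this scale understate those of low genes. Estimated counts at 0 allow 3 counts, and this floor covers counting error only. Totals per library of 17674788 to 35862932 limit the precision of the low genes Grem1 and Nog. Transcript shares were tested as logit shares with a pseudocount of 0.5, for transcripts of at least 10 and genes of at least 50 estimated counts. Exact permutation tests cannot go below 0.10 with 3 mice against 3 and were not used. The fits were tested on simulated data. Figures were drawn with matplotlib 3.10.9 in Python 3.11.15.

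Genotype and tissue were taken from the labels. Same-numbered lung and heart libraries come from the same mouse by its identifier, and their deviations from the group means correlated between −0.068 and 0.136 over 17666 genes. Replicate numbers are in order of deposit and pair no WT with a KO mouse. The 42 members, the other lists and the tests were chosen with earlier results of these data known. Named with values in every library, or their lowest, median and highest, were the 4 members of smallest p between genotypes in each tissue, the 6 with the largest tissue difference each way among those called, members with a transcript share called and the 3 of highest level per kilobase. Members given beside these were chosen after their values were seen. Levels per kilobase used the deposited scaling in place of the share of all transcripts that had been planned, because of Rn7s1, a choice made after seeing the data. Alternatives were limma-voom, no trend, other scalings and filters, summed transcripts, the mouse as a block and leaving out each library. Transcript structures and lengths were read from GENCODE vM39 (GRCm39), and promoters from RefSeq (GRCm38.p6). Deposited transcripts were matched to vM39 by identifier, leaving out the version number where it differed. Their vM39 structures were not compared with those of vM33. Of the other pathway genes, those with the largest tissue differences were named, and 1 that met this rule is not reported here. The reads were not used here.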

Additional observations from a re-analysis of the deposited data

How the results depend on the processing

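No called result changed direction under an alternative. With no scaling between libraries, which moved the median of all genes by 0.59 in KO against WT hearts, 0.26 in the lungs and 0.26 between tissues, 2 members were called in KO hearts (Smad6 1.48, Ltbp2 1.93) and 7 of the other pathway genes, and 1 member was lower in lung than in heart. Without scaling 22.02% of all genes had an unadjusted p under 0.05 between KO and WT hearts (limma), beside 7.46% with it. Genotype differences that were not called changed sign without scaling in 9 of 40 members in the heart (Smurf2 to 0.20) and 17 of 41 in the lung. The median over members in the lung became 0.26. With a library left out, signs changed in 4 to 8 members in the heart and 2 to 11 in the lung. Of the other pathway genes 1 was called in KO hearts with all 12 libraries in 1 fit, and 0 to 1 when a library was left out (1 without heart WT replicate 2, Tmem100, and 1 without heart KO replicate 2, Bmp10). Members lower in lung numbered 1 on summed transcripts, 5 with the median over all genes set to 0, an alternative chosen after seeing the data, and 2 to 3 with a library left out. The genotype effect between tissues was called for 0 to 1 of the other pathway genes with a library left out (Tmem100 without heart WT replicate 2). Members with a transcript share called fell from 5 to 1 with the mouse as replicate block and ran from 3 to 6 with a library left out, 3 without any 1 lung KO library, heart WT replicate 3, or heart KO replicate 1 or 3. The cause of these changes was not tested. The mouse as replicate block left 21 members higher and 2 lower in lung and changed no other call. With 3 mice a group, the 95% intervals of genotype differences in the lung had a median half-width of 0.44, and no limit of detection was measured.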
